A study of Mus musculus with 6 samples.

Results

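Cysteine cathepsins are proteases of lysosomes that cut proteins with an active-site cysteine, and cystatins and the Ctla2 proteins are small inhibitors that hold them in check. The group described here holds 10 genes of the 18193 measured: the inhibitors Ctla2a, Ctla2b, Cst3 and Cst6, and the cathepsins Ctsl, Ctsb, Ctsk, Ctsz, Ctsh and Ctss. The genes were listed by name and chosen by their values in knockout against wild type clones on these same arrays, so those values are given below as a description, with no test. All 10 genes were measured. They were read by 18 probe sets, and 1 further probe set is annotated to Ctla2a and Ctla2b together. For each gene the probe set with the highest mean over all arrays leads.

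RNA came from 6 clones of mouse embryonic fibroblasts, each a line that had become immortal spontaneously in culture, with 1 array per clone. Clones E, H and J were derived from FHL2-/- mice and clones E, F and I from WT mice; FHL2 is a LIM-domain adaptor that binds transcription factors, AP-1 among them. No treatment is named for any clone. The sources used here give neither the strain, nor the deleted part of the gene, nor whether clones of 1 genotype share an embryo, so errors and p-values measure the spread between clones. Levels are log2 intensities, on which a step of 1 is a 2-fold change, and differences are knockout minus wild type with the standard error (SE) of a limma fit, n = 3 clones per genotype. Genes outside the group are said to rise or fall where the limma p-value, adjusted over all genes, lay under 0.05.

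The targeted gene was lower in every knockout clone: Fhl2 read 6.01, 6.44 and 6.57 in the knockout (clones E, H, J) and 9.88, 8.57 and 9.64 in the wild type (clones E, F, I). Clone readings below keep this order. Fhl2 fell by 3.02 (SE 0.35, limma adjusted p = 0.00400). The median reading of an array lay between 4.51 and 4.54 for knockout clones and between 4.44 and 4.46 for wild type clones. The 3' minus 5' reading of the Gapdh control, a sign of RNA integrity, ran from -0.119 to -0.0450 among knockout clones and from -0.0410 to 0.0520 among wild type clones; these values move with genotype and their part in the results was not tested. The same reading of the actin control overlapped between the genotypes, from 0.103 to 0.235 among knockout and from 0.0929 to 0.133 among wild type clones. Knockout clone H stood apart, with correlations across genes of 0.964 and 0.968 with the other knockout clones, which correlated with each other at 0.991. It was also nearer to wild type over all genes. Its correlations with wild type clones were 0.949 to 0.953, against 0.934 to 0.942 for knockout clones E and J. All 12 fibroblast markers had mean levels above the median gene, among them the collagen gene Col1a1 and vimentin, Vim. Of 10 macrophage markers, 9 lay below the median gene, and their mean level ran from 4.22 to 4.35 among knockout clones and from 4.13 to 4.201 among wild type clones. The mean of the fibroblast list was higher in knockout clones, at 12.1 to 12.2 against 11.2 to 11.9; Pdgfra, Dcn and Lum rose and Pdgfrb and Thy1 fell (limma), and the part of this in the results was not tested. Of the lists for other cells, 1 marker each of the osteoclast (Itgb3), endothelial (Tek) and epithelial (Epcam) lists rose. No marker passed among 10 of macrophages, 6 of T cells and 3 of trophoblast, and all 6 T cell markers had means below the median gene.

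Cathepsins are made as inactive precursors whose propeptide blocks the active site until it is cut off in the acid lysosome. The Ctla2 proteins, first found in activated T cells and mast cells, resemble that propeptide and inhibit cathepsin L-like enzymes, whereas cystatins are an unrelated family that plugs the active-site cleft. In fibroblasts, cathepsins degrade endocytosed and secreted matrix, and cystatin C, the product of Cst3, is secreted.

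Ctla2a and Ctla2b lie on mouse chromosome 13, and their start-site windows were compared because these genes differed most between the genotypes. RefSeq windows of assembly GRCm38.p6, 250 bases before to 50 after a start site, were found for 7 of the 10 genes. The windows shown are chr13:60936576-60936875 for Ctla2a and chr13:60897398-60897697 for Ctla2b, both on the minus strand. Capitals mark TGANTCA, the motif bound by AP-1, which reads the same on both strands.
Ctla2a: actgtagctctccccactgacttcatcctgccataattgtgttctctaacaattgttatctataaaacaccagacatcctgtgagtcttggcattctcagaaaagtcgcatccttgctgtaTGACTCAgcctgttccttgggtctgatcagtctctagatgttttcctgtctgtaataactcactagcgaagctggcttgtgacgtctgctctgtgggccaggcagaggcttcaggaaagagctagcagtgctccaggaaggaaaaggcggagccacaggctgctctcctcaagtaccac
Ctla2b: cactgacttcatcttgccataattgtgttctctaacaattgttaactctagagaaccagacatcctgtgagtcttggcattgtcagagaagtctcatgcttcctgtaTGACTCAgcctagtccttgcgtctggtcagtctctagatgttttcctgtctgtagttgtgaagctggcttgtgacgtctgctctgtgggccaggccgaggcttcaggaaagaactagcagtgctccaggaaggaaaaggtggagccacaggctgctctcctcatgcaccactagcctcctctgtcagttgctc

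The windows aligned over 286 columns with 255 identical bases, or 89.2%, and 8 columns with a gap. The same local alignment of the Ctla2a window with those of the other 5 genes gave 51.1% to 53.2% identical bases. TGANTCA occurred once in each Ctla2 window, with its first base at -129 in Ctla2a and -143 in Ctla2b, counted from the start site, inside the aligned stretch. Ctla2a has a second start site, not shown, whose window held the motif at -188 and was 88.6% identical to that of Ctla2b. Among all 32851 windows, 7.81% held that motif, and the windows of Cst3, Ctsl, Ctsk, Ctsz and Ctss did not. CACGTG, an E-box that reads the same on both strands, occurred in the Ctsl window, at -236, and in 7.15% of all windows. The core of the interferon response element, GAAA followed after 2 bases by GAAA and searched on both strands, occurred in the Ctss window, at -21, and in 3.44% of all windows. These matches describe letters in the windows and show neither binding nor use.

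Ctla2a separated the genotypes by more than any other gene of the group. Its lead probe set read 3.79, 6.19 and 4.34 in the knockout clones and 11.7, 12.1 and 12.0 in the wild type clones. All wild type clones were high and all knockout clones low, with knockout clone H closest to wild type. The means were 4.77 ± 1.26 (SD, n = 3) and 11.9 ± 0.201 (SD, n = 3), a difference of -7.16 (SE 0.58) or 143-fold, and -7.86 without clone H. Knockout clones E and J read low on the scale, so these sizes are not exact. Within all readings of a genotype, the wild type mean lay at percentile 99.4 of genes and the knockout mean at percentile 38.9. In bulk RNA, fewer cells with a transcript and less of it per cell cannot be told apart.

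Ctla2b, its neighbour and near copy, read 2.23, 2.68 and 2.34 in the knockout clones and 8.01, 8.54 and 8.05 in the wild type clones. The groups were again far apart, and the knockout mean, 2.42 ± 0.235 (SD, n = 3), lay at percentile 1.06 of genes, near the bottom of the scale. The difference was -5.78 (SE 0.19), or 55-fold, and -5.91 without clone H; the size is not exact where a reading is near that bottom. The probe set annotated to both genes read 3.002, 6.24 and 3.26 in the knockout and 11.7, 12.1 and 12.2 in the wild type clones. It followed the Ctla2a probe set clone by clone, clone H included, at -7.86 (SE 0.82), a size that is not exact either, since knockout clones E and J read near the bottom of the scale. The Ctla2a probe set and the shared one carry the same reference transcript in the array annotation, so how much each reads of the other gene cannot be told apart.

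The cystatins did not move as a pair. Cst6, which encodes cystatin E/M, an inhibitor known from skin that acts on cathepsins and legumain, read 4.96, 4.72 and 4.30 in the knockout and 7.14, 7.501 and 6.61 in the wild type clones. The groups did not overlap, and no single clone carried the gap. The means were 4.66 ± 0.336 and 7.08 ± 0.451 (SD, n = 3), which is -2.42 (SE 0.27) or 5.36-fold, and -2.45 without clone H. The knockout mean lay at percentile 37.7 of genes, so the size may not be exact.

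Cst3, the gene of cystatin C, read 12.0, 11.6 and 11.8 in the knockout clones and 11.8, 11.7 and 11.8 in the wild type clones. The wild type readings fell inside the range of the knockout ones, and both means lay at percentile 99.2 or 99.3 of genes. The difference was 0.04 (SE 0.13), within the spread between clones, and ran from -0.06 to 0.15 when a clone was left out.

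**Figure D1:**
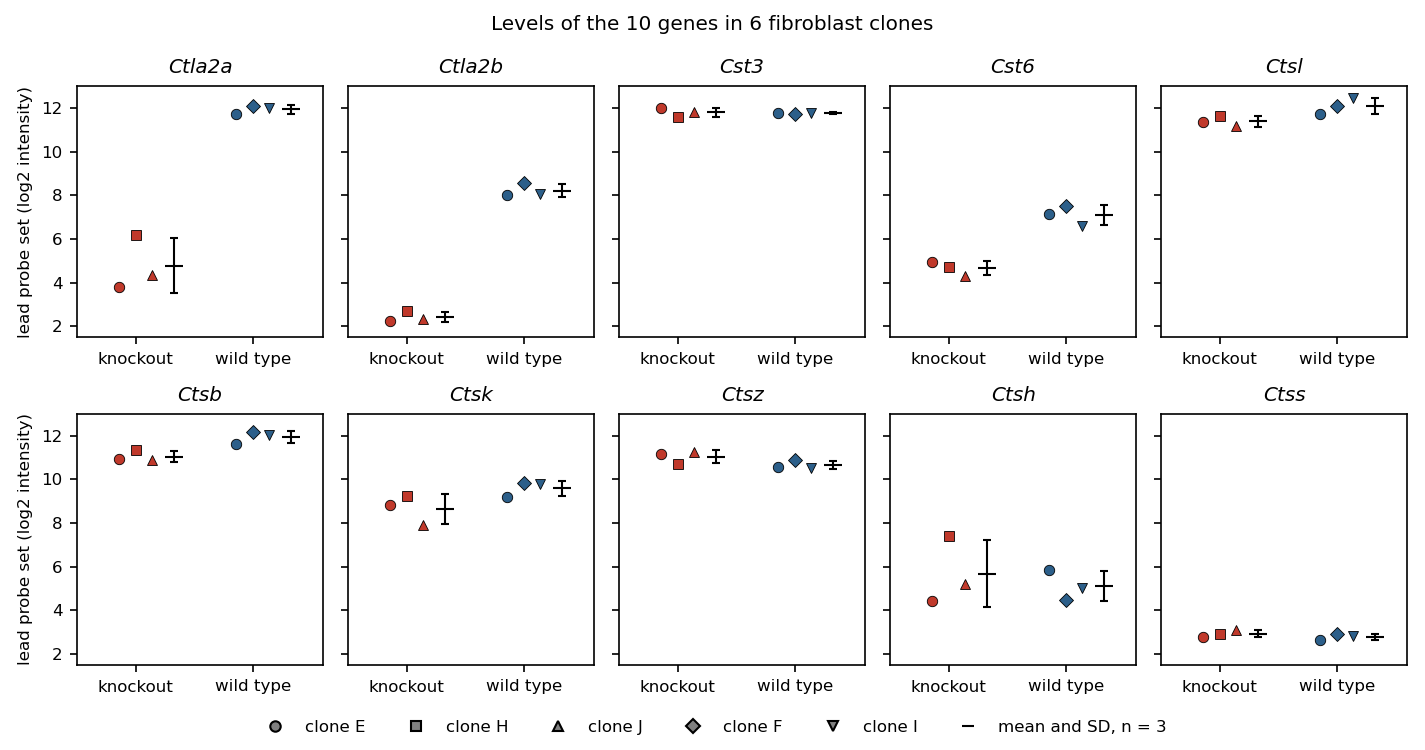
Log2 intensity of the lead probe set (vertical axis) in each knockout (red) and wild type (blue) clone, with the mean and SD of 3 clones beside them, 1 panel per gene. Ctla2a, Ctla2b and Cst6 lie far lower in all knockout clones, Ctsl and Ctsb lie lower by less than 1 unit, and the groups overlap for Cst3, Ctsk, Ctsz, Ctsh and Ctss.

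Ctsb and Ctsl, which encode the general lysosomal proteases cathepsins B and L, read lower in every knockout clone, by less than 2-fold. Ctsb read 10.9, 11.3 and 10.9 in the knockout clones and 11.6, 12.1 and 12.0 in the wild type clones, a difference of -0.89 (SE 0.19) or 1.85-fold. Ctsl read 11.4, 11.6 and 11.1 in the knockout and 11.7, 12.1 and 12.5 in the wild type clones, a difference of -0.70 (SE 0.22) or 1.63-fold. In both genes knockout clone H was the highest of its group and wild type clone E the lowest of its own, so the nearest clones of the 2 genotypes lay close together. Without clone H the differences were -1.03 for Ctsb and -0.83 for Ctsl.

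The 5 probe sets of Ctsb did not read alike. Of these, 4 gave -0.96 to -0.88, and in 1 of the 4 the genotypes overlapped. The remaining Ctsb probe set, at 4.165 to 4.59 in all clones, gave -0.17 (SE 0.11). The second Ctsl probe set, at 3.67 to 4.46, gave -0.37 (SE 0.16) with groups that did not overlap. The probe sets with low readings thus gave the smaller differences in both genes.

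Ctsk, the collagen-cutting cathepsin known from osteoclasts and also made by fibroblasts, read 8.80, 9.26 and 7.91 in the knockout and 9.19, 9.82 and 9.77 in the wild type clones. Knockout clone H lay above wild type clone E, so the groups overlapped, and knockout clone J was the lowest. The difference was -0.94 (SE 0.36), or 1.91-fold; it was -1.24 without clone H and -0.56 without knockout clone J. Of 6 osteoclast markers, Acp5 read 3.29 to 3.84 over all clones, and 5 of the 6 had means below the median gene. The other, Itgb3, read 6.79, 6.59 and 7.04 in the knockout and 5.31, 5.78 and 5.80 in the wild type clones. It rose by 1.18 (SE 0.18, limma adjusted p = 0.00885), the sign opposite to Ctsk.

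Ctsz, the gene of cathepsin Z, a carboxypeptidase, had the opposite sign. Its lead probe set read 11.1, 10.7 and 11.3 in the knockout and 10.6, 10.9 and 10.5 in the wild type clones. Knockout clone H lay below wild type clone F, and the other knockout clones lay above all wild type clones. The difference was 0.38 (SE 0.18), or 0.55 without clone H, and the other Ctsz probe sets gave 0.50 and 0.56, each with overlapping groups.

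Ctsh, the gene of the aminopeptidase cathepsin H, differed more among the clones than between the genotypes. It read 4.42, 7.40 and 5.21 in the knockout clones and 5.83, 4.48 and 5.04 in the wild type clones. Clone H was high, and the other knockout clones lay within the wild type range or just below it. The difference was 0.56 (SE 0.77) with clone H and -0.30 without it, so 1 clone set its sign. Clone H was also high at the second Ctsh probe set, with 5.15 against 3.34 and 3.53 in the other knockout clones and 3.19 to 3.68 in wild type. There the difference was 0.59 with clone H and 0.01 without it, so its sign did not change. The macrophage markers differed in direction in clone H. Cd68 read 4.40 in clone H against 3.27 and 3.59 in knockout clones E and J, and Aif1 read 3.43 against 2.83 and 2.79. Lyz2 and Tyrobp were lowest in clone H, at 5.27 against 6.03 and 7.15, and at 3.09 against 3.53 and 3.77. Ptprc and Itgam read 2.67 and 3.18 in clone H, near the bottom of the scale as in every clone. The mean of the whole list was 4.22 in H against 4.23 and 4.35 in E and J. The part of macrophages in the Ctsh reading was not tested.

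Ctss, the cathepsin of antigen-presenting cells, lay near the bottom of the scale in every clone. It read 2.76, 2.93 and 3.08 in the knockout and 2.65, 2.91 and 2.82 in the wild type clones, at percentiles 8.66 and 6.77 of genes. The groups overlapped, and the difference was 0.13 (SE 0.13), under the SD of 0.161 among knockout clones. The deposited values hold no detection call, so whether any Ctss transcript was present was not tested.

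**Figure D2:**
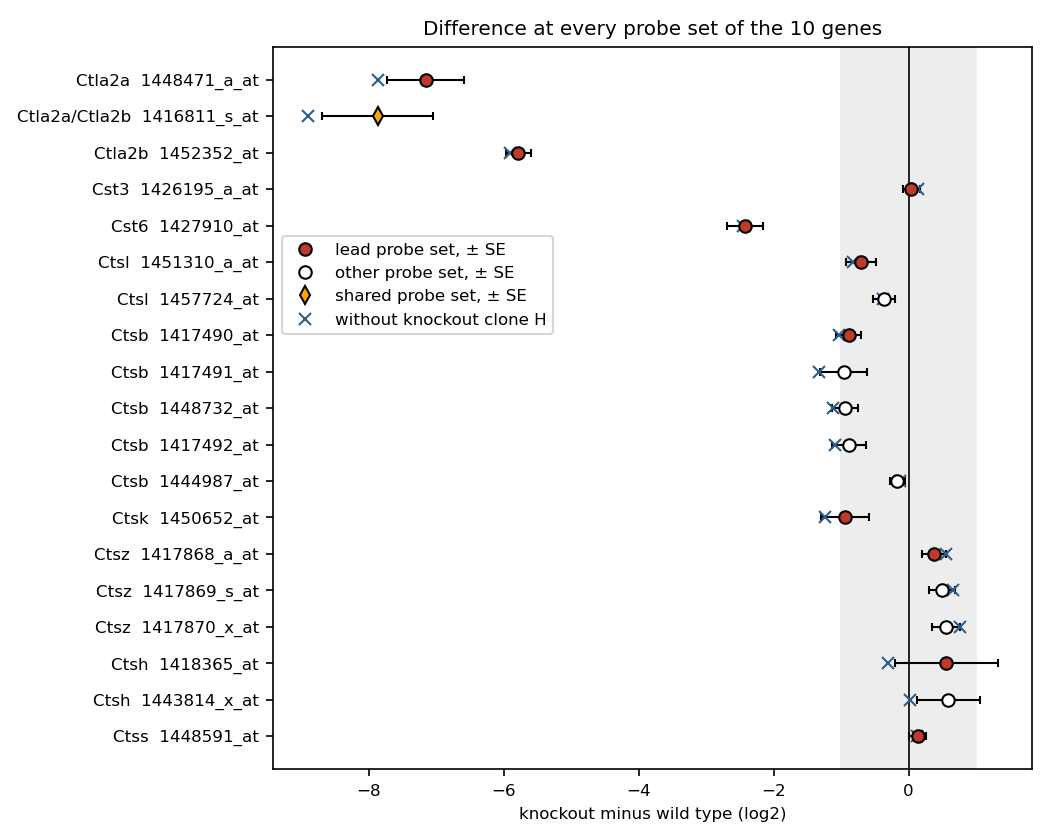
Log2 difference between knockout and wild type (horizontal axis, knockout minus wild type) for all 19 probe sets of the 10 genes, with bars of 1 SE from a fit over all probe sets; crosses give the difference without knockout clone H, and grey marks differences under 2-fold. The Ctla2 and Cst6 probe sets lie at -2.42 or below, and all cathepsin probe sets lie between -0.96 and 0.59.

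Counted over the group, 5 of 10 genes had genotypes that did not overlap with knockout lower (18.2% of all genes did), and 0 had them with knockout higher (20.7% of all genes). Differences of 2-fold or more downward were seen in 3 of 10 genes (5.71% of all genes) and upward in 0 (5.05%). The median difference over the 10 genes was -0.79, against 0.04 over all genes. The genes were chosen with this contrast in view, so nothing follows from these counts. Without wild type clone E or knockout clone H, 5 genes were past 2-fold, as Ctsb and Ctsk joined Ctla2a, Ctla2b and Cst6. Without knockout clone E there were also 5, with Ctsk at -1.01 and Ctsh at 1.18.

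Within the genotypes, clones differed in ways the comparison above did not use. Knockout clone H was the highest knockout clone for 6 of the 10 genes, namely Ctla2a, Ctla2b, Ctsl, Ctsb, Ctsk and Ctsh, where it was so for 35.3% of all genes. It lay above the mean of clones E and J by 2.59 for Ctsh, 2.12 for Ctla2a and 0.90 for Ctsk, and by 0.38 to 0.43 for Ctla2b, Ctsl and Ctsb. It was the lowest knockout clone for Ctsz and Cst3, by 0.50 and 0.31. For the genes that read lower in knockout clones, clone H therefore lay on the wild type side, Cst6 being nearly level at 0.10. Clone H was nearer to wild type over all genes too, so this is not particular to the group. The SD among knockout clones was 1.54 for Ctsh and 1.26 for Ctla2a, at percentiles 98.8 and 98.0 of genes, against a median of 0.166 over all genes.

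Wild type clone E was the lowest wild type clone for 6 of the 10 genes, where it was so for 34.0% of all genes. These were Ctla2a, Ctla2b, Ctsl, Ctsb, Ctsk and Ctss. Its array is the only 1 deposited with 9 decimals in place of 3, and whether it was processed apart from the others was not tested. Wild type clones were closer together than knockout clones for Ctla2a, with an SD of 0.201.

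Likeness to the level pattern was measured by Pearson's r over the 6 clones, among 4838 genes whose levels ranged over at least 1 log2 unit. Closest to Ctla2a were Dpysl3 (r = 0.999), Tcirg1 (r = 0.998) and Nnmt (r = 0.998), and 44 genes had r over 0.99. Dpysl3 read 8.61, 9.31 and 8.58 in the knockout and 11.3, 11.5 and 11.4 in the wild type clones, so it shared the low knockout readings with clone H highest. Closest to Ctla2b were Tmem65 (r = 0.999), Arhgap31 (r = 0.998) and Pef1 (r = 0.997). Closest to Ctsl were Ttc3 (r = 0.991), Ank (r = 0.984) and Fabp4 (r = 0.981). With 6 points that fall into the 2 genotypes, these values mostly reflect the genotype gap and are a description.

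**Figure D3:**
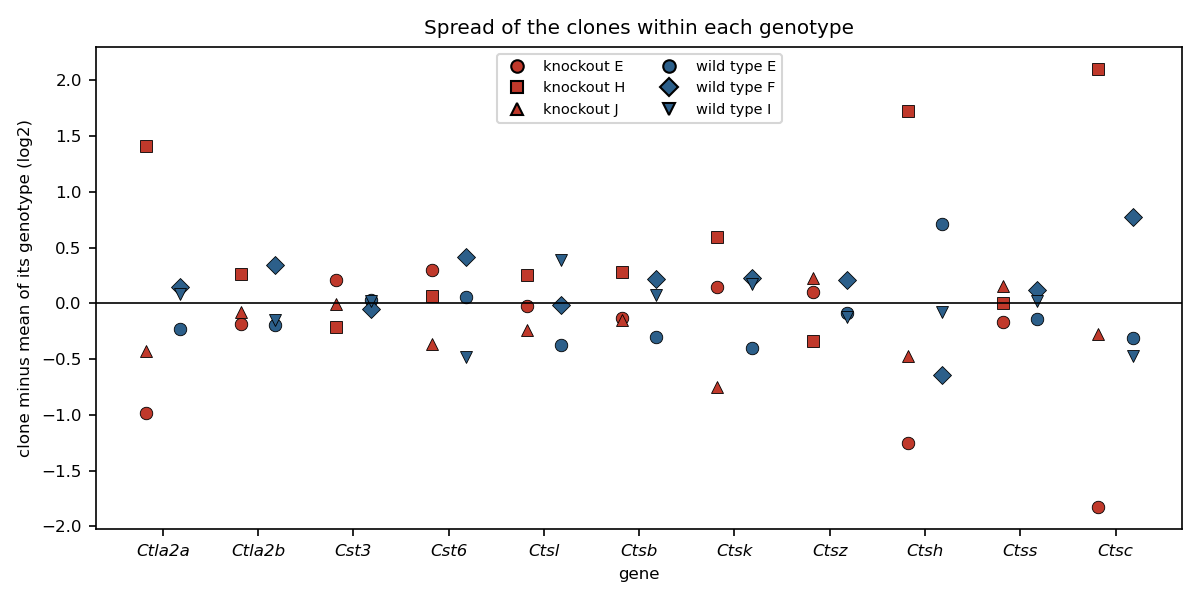
Log2 level of each clone minus the mean of its own genotype (vertical axis) for the 10 genes and Ctsc, with knockout clones in red and wild type clones in blue. Knockout clone H (square) lies 1.41, 1.72 and 2.10 above its group mean for Ctla2a, Ctsh and Ctsc.

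On chromosome 13 the measured genes lie in the order 4930486L24Rik, Ctla2b, Tpbpb, Ctla2a and Tpbpa, and Ctsl follows further along. Tpbpb and Tpbpa, trophoblast genes related to Ctla2, lie beside the Ctla2 genes and did not pass, at 0.03 (SE 0.22, limma adjusted p = 0.943) and 0.05 (SE 0.09, adjusted p = 0.759). Both read under 4.2 in every clone, near the bottom of the scale. 4930486L24Rik read 4.23, 4.02 and 4.59 in the knockout and 6.64, 6.70 and 6.38 in the wild type clones and fell by 2.30 (SE 0.17, limma adjusted p = 0.00145). Dapk1, a death-associated kinase 3 genes before Ctla2b, rose by 2.51 (SE 0.42, limma adjusted p = 0.0113). Calls among these flanking genes thus went in both directions, and whether the neighbourhood changed together was not tested.

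Between Ctla2a and Ctsl lay 29 measured genes. From 10 measured genes before Ctla2b to 10 after Ctsl, 50 genes other than the 3 named had a median difference of 0.03. Of them 5 fell and 3 rose, or 16%, where over all genes 10% fell and 9.04% rose, so the share was near the background. Many of the 50 read near the bottom of the scale in both genotypes, such as Ctsj with means of 2.72 (knockout) and 2.70 (wild type), where a fall could hardly show. The median and the share therefore do not tell whether the stretch differed as a whole. Prxl2c, the gene next to Ctsl, fell by 1.93 (SE 0.16, limma adjusted p = 0.00177). Ctsk and Ctss are adjacent among measured genes on chromosome 3; Ctsk differed by -0.94, while Ctss stayed near the bottom of the scale in all clones. Beside Cst3 on chromosome 2, the cystatin genes Cst9 and Cst10 read 2.69 to 3.66 and 2.47 to 2.90, also near the bottom. Pacs1, a sorting protein gene near Cst6, rose by 0.94 (SE 0.11, limma adjusted p = 0.00448). Others within 3 genes of a member also passed, in both directions: Syndig1 near Cst3 rose by 2.79 (limma adjusted p = 0.0336), Atp5e near Ctsz by 0.61 (0.0180) and Tmed3 near Ctsh by 0.48 (0.0252). Near Ctsb, Ints6 fell by 2.06 (limma adjusted p = 0.0252) and Fdft1 by 0.67 (0.04997). Cdc14b near Ctsl fell by 1.29 (limma adjusted p = 0.0279). Each of these 6 calls was lost without wild type clone E and without knockout clone J, among other clones.

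**Figure D4:**
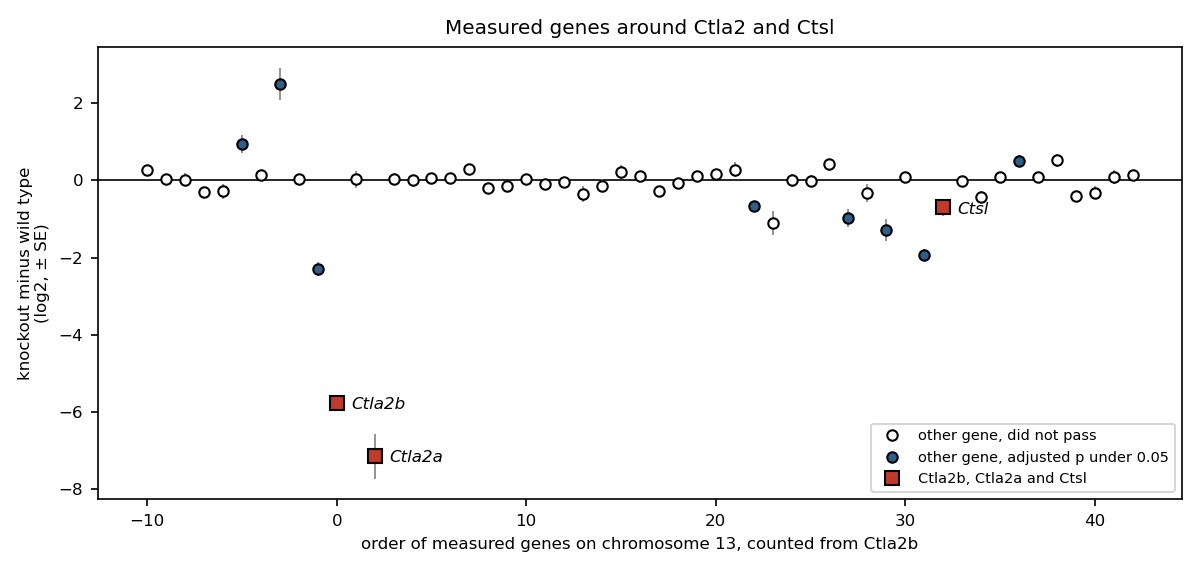
Log2 difference, knockout minus wild type, with 1 SE (vertical axis) for 53 measured genes in their order on chromosome 13, counted from Ctla2b (horizontal axis). Ctla2b and Ctla2a stand at -5.78 and -7.16, with Tpbpb between them near 0, and Ctsl at -0.70.

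Genes outside the group were read from 7 lists of other cathepsins, cystatins and lysosomal genes, 78 genes in all, of which 70 were measured. Of these 70, 13 fell and 4 rose; over all genes, 10% fell and 9.04% rose. Their median difference was -0.08. The count of 17 was 7 without knockout clone J, 10 without knockout clone E and 11 without wild type clone F, and 19 without knockout clone H. With array weights 13 fell and 9 rose, and among the 43 genes of the lists at or above the median level alone 14 fell and 6 rose. The shares of 10% and 9.04% belong to the main fit, with 3464 calls, and are too low a background for these settings. Array weights gave 4926 calls over all 18193 genes. The genes at or above the median level alone gave 3142, but out of fewer genes than the 18193 of the main fit. That count therefore cannot be set beside 3464 directly. Matched shares of falls and rises were not computed for these settings. Their counts in the lists thus have no background and are a description.

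Among 13 other cysteine cathepsins, 2 rose and 0 fell (median 0.04). At an unadjusted limma p under 0.05, 3 were higher and 0 lower. The share of all genes under that unadjusted threshold was not computed. Such counts, here and for the lists below, thus have no background and are a description. Ctsf, cathepsin F, read 8.47, 8.57 and 8.23 in the knockout and 5.93, 6.54 and 6.24 in the wild type clones and rose by 2.18 (SE 0.18, limma adjusted p = 0.00172); its averaged probe sets gave 1.13. Ctso, cathepsin O, rose by 1.57 (SE 0.30, limma adjusted p = 0.0161), and its averaged probe sets gave 0.83; the call was lost without knockout clone E or J or wild type clone E or F (adjusted p 0.0519 to 0.0595). These cathepsins thus had the sign opposite to Ctsb and Ctsl.

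Ctsc, cathepsin C, an activator of immune-cell proteases, read 4.42, 8.35 and 5.97 in the knockout and 4.86, 5.95 and 4.70 in the wild type clones. Clone H was high, as it was for Ctsh, by 3.16 above the mean of clones E and J. The genotype difference of 1.08 (SE 0.95) did not pass (limma adjusted p = 0.489). Ctsw, a cathepsin of cytotoxic lymphocytes, read 4.16 to 4.29 in all clones (limma adjusted p = 0.821). The 9 others, cathepsins of the placental cluster on chromosome 13, read 2.15 to 3.24 and none passed.

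Of 6 aspartic and serine cathepsins and legumain, 3 fell and 0 rose (median -0.46); at an unadjusted limma p under 0.05, 3 were lower and 1 higher. Legumain, Lgmn, an asparaginyl protease that trims cathepsins and is itself inhibited by cystatin E/M, read 7.77, 8.15 and 7.69 in the knockout and 8.64, 9.10 and 9.04 in the wild type clones. It fell by 1.06 (SE 0.18, limma adjusted p = 0.0118) and passed in each alternative fit that measured it. Ctse, the aspartic protease cathepsin E, fell by 1.76 (SE 0.23, limma adjusted p = 0.00520), but gave -0.81 with probe sets averaged. Without probe sets classed by name as open to cross-hybridization, Ctse gave 0.15 (limma adjusted p = 0.414). Ctsa, a carboxypeptidase that also protects lysosomal glycosidases, fell by 0.84 (SE 0.21, limma adjusted p = 0.0393). That call was lost with probe sets averaged (-0.43) and without knockout clone E or J or wild type clone F or I (adjusted p 0.0515 to 0.123), and after quantile normalization again (0.0545). Ctsd, the aspartic cathepsin D, differed by 0.35 (SE 0.14, limma adjusted p = 0.144), and Napsa by -0.04 (SE 0.13, limma adjusted p = 0.875).

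Of 13 measured among 18 other listed cystatin-domain genes, 0 passed in either direction (limma; median 0.03), and 10 of them lay near the bottom of the scale, at 2.08 to 4.54. At an unadjusted limma p under 0.05, 1 was lower and 1 was higher. Cstb, the intracellular inhibitor stefin B, read 10.9, 10.6 and 10.7 in the knockout and 11.1, 11.1 and 11.1 in the wild type clones. Its groups did not overlap, and the difference of -0.33 (SE 0.10, limma adjusted p = 0.0668) passed only with probe sets averaged (adjusted p = 0.0340). Hrg, a plasma glycoprotein with cystatin domains, differed by 0.24 (SE 0.12, limma adjusted p = 0.236).

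Of 10 genes for delivery of enzymes to lysosomes, 4 fell and 1 rose (median -0.14). At an unadjusted limma p under 0.05, 4 were lower and 2 higher. M6pr, the small mannose 6-phosphate receptor that carries new cathepsins, fell by 0.56 (SE 0.10, limma adjusted p = 0.0134), which did not pass without knockout clone J or wild type clone F (0.0528 and 0.0514). Gnptg, a subunit of the enzyme that makes the mannose 6-phosphate tag, rose by 1.09 (SE 0.22, limma adjusted p = 0.0184), which did not pass without knockout clone E or J or wild type clone E (0.0610 to 0.0725). Vps26a, of the retromer that returns receptors to the Golgi, fell by 0.72 (SE 0.10, limma adjusted p = 0.00722). Its partner Vps35 fell by 0.41 (SE 0.10, limma adjusted p = 0.0359), a call lost on leaving out any clone (0.0586 to 0.115) and with probe sets averaged or quantile normalization again (0.0767 and 0.0762).

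Scarb2, a sorting receptor and lysosome membrane protein, fell by 1.32 (SE 0.31, limma adjusted p = 0.0309), which did not pass without knockout clone E or J or wild type clone E (0.0727 to 0.103). Igf2r, the large mannose 6-phosphate receptor, and Lrp1, an endocytic receptor, did not pass, at -0.13 (SE 0.25, limma adjusted p = 0.769) and -0.16 (SE 0.19, limma adjusted p = 0.634). Receptors of the delivery route therefore differed in whether they passed, and the difference between them was not tested.

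Of 9 genes of the lysosome membrane, the proton pump and its regulators, 3 fell and 0 rose (median -0.47); at an unadjusted limma p under 0.05, 4 were lower and 1 higher. Lamp1, a major membrane glycoprotein, read 11.9, 11.7 and 11.8 in the knockout and 12.3, 12.6 and 12.3 in the wild type clones and fell by 0.63 (SE 0.11, limma adjusted p = 0.0144), which did not pass without knockout clone J (0.0560). Atp6v1h, a pump subunit, fell by 0.80 (SE 0.15, limma adjusted p = 0.0157), a call lost with probe sets averaged (-0.32, 0.0676) and without knockout clone E or J (0.0543 and 0.0579). Atp6ap1, a pump accessory protein, fell by 0.86 (SE 0.17, limma adjusted p = 0.0189), which passed without knockout clone H but not without any of the other 5 (0.0566 to 0.0674). Lamp2 and the pump subunit Atp6v0d1 did not pass, at -0.25 (SE 0.20, limma adjusted p = 0.441) and -0.06 (SE 0.16, limma adjusted p = 0.837).

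Of 17 measured lysosomal hydrolases and their activators, 3 fell and 1 rose (median -0.08). At an unadjusted limma p under 0.05, 4 were lower and 4 higher. Gla, alpha-galactosidase, fell by 1.76 (SE 0.25, limma adjusted p = 0.00687); its averaged probe sets gave -0.71 and did not pass (0.0554). Glb1, beta-galactosidase, fell by 0.91 (SE 0.15, limma adjusted p = 0.0112), and Sgsh, a sulfatase of heparan sulfate breakdown, rose by 1.15 (SE 0.19, limma adjusted p = 0.0103); both passed in each alternative fit that measured them. Hexa, which encodes a subunit of a lysosomal glycosidase, fell by 0.53 (SE 0.14, limma adjusted p = 0.0441), a call lost after quantile normalization again (0.0708) and without knockout clone E or J or wild type clone F or I (0.113 to 0.135). Psap, the precursor of the saposins, and Npc2, a cholesterol carrier, did not pass, at -0.28 (SE 0.20, limma adjusted p = 0.383) and 0.18 (SE 0.14, limma adjusted p = 0.423). Lysosomal hydrolases thus held calls in both directions.

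**Figure D5:**
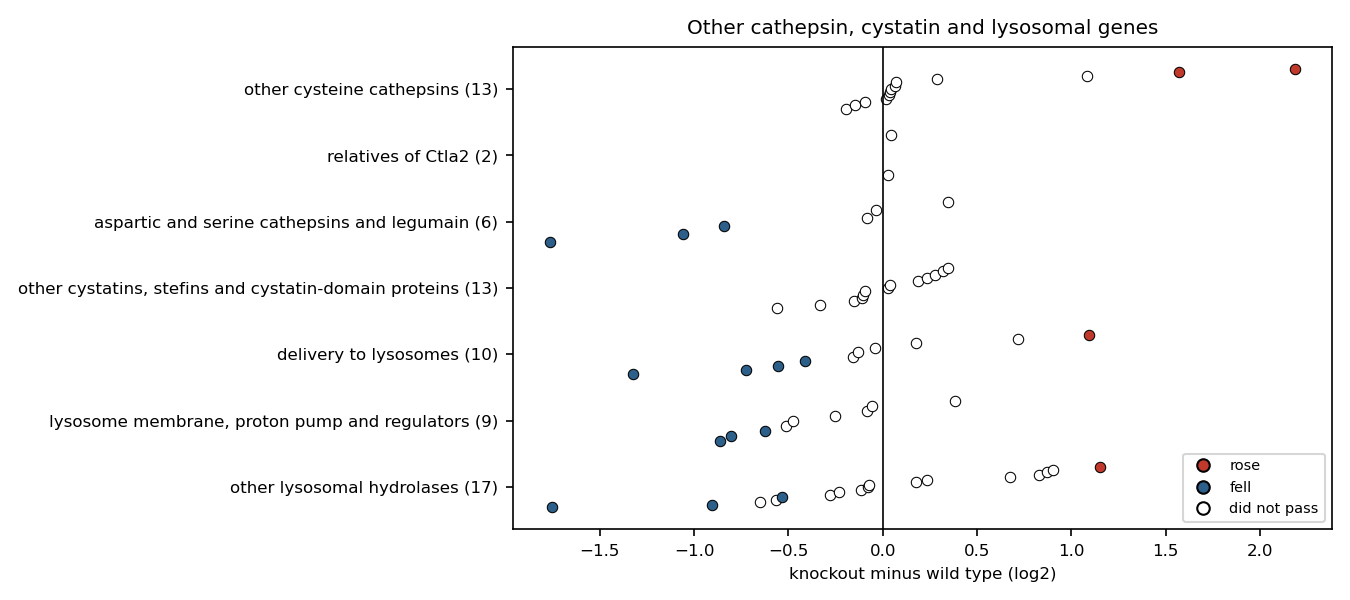
Log2 difference, knockout minus wild type (horizontal axis), for 70 genes in 7 lists, with the number measured in brackets; red points rose, blue points fell and white points did not pass at a limma adjusted p of 0.05. The cystatin list holds no coloured point, Ctsf lies at 2.18, and Ctse and Gla both lie at -1.76.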

How the data were processed

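The authors deposited log2 intensities for 45101 probe sets of a 1-colour Affymetrix array, made with RMA per the submitters' processing notes; the sources used here give no version or settings. The members and the gene lists were chosen with earlier results of these data known.

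Groups came from sample titles. Control probe sets (64) and probe sets with several symbols (932) or none (9160) were left out, apart from the probe set shared by Ctla2a and Ctla2b. Of 34945 probe sets with 1 symbol, 34741 matched RefSeq genes of GRCm38.p6 through their gene IDs. Each of 18193 genes took its probe set with the highest mean. The genotype difference was fitted by limma 3.58.1 under R 4.3.3 with lmFit and eBayes, and p-values were adjusted by Benjamini-Hochberg over all genes. The fit was tested on simulated data with 200 changed genes, fewer than the 3464 that passed here. It recovered 51% of genes changed 2-fold and 90% of those changed 4-fold. The adjustment is stricter where fewer genes differ, so these shares are not those of the real fit. Genes that did not pass may still differ. Arrays have no read depth; 3 clones per genotype limit the precision.

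Named were the members, Fhl2, per list up to 5 genes that passed (smallest p) and the 2 highest that did not, 3 genes most like Ctla2a, Ctla2b and Ctsl, and neighbours up to 3 genes away. Promoter windows were aligned with Biopython 1.88 and figures drawn with matplotlib 3.10.9. Some listed genes are not reported here.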

Additional observations from a re-analysis of the deposited data

How the results depend on the processing

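Alternatives were another prior, a second quantile normalization, median centring, the more highly expressed genes alone, averaged probe sets, probe sets open to cross-hybridization left out, array weights, a 2-fold threshold and each clone left out. Probe sets were classed as open to cross-hybridization by names ending in _a_at, _s_at or _x_at alone. Whether they do cross-hybridize was not tested. The 3464 genes that passed became 1661 to 4750 when 1 clone was left out and 1495 with a 2-fold threshold. The 17 calls in the other cathepsin, cystatin and lysosomal lists became 7 to 19 when 1 clone was left out, 8 with a 2-fold threshold, and 11 without probe sets open to cross-hybridization, where 55 of the 70 genes could be measured. The members past 2-fold numbered 3, and 3 to 5 when 1 clone was left out; Ctla2a, Cst3 and Ctsz had no value where such probe sets were dropped. Of 107 member values under alternatives, 106 moved by less than 1 SD among clones, pooled over both genotypes. Ctsl moved to -0.37 without probe sets classed as open to cross-hybridization, where only its low probe set, at 3.67 to 4.46, remained. Where that SD is wide the moves were still large: without knockout clone H, Ctsh went from 0.56 to -0.30 and Ctla2a from -7.16 to -7.86, and without knockout clone J, Ctsk went from -0.94 to -0.56. Of 401 values of other named genes, 41 lost and 1 gained a call, and Ctse reversed to 0.15 where such probe sets were dropped; the cause was not tested. No paired analysis was possible because the genotypes share only the clone letter E. Median centring lowered the share of calls that were higher in knockout from 47.5% to 41.7%. Readings near the bottom of the scale limit the sizes given for Ctla2b and the probe set it shares with Ctla2a, and the comparison of Ctss. Low knockout readings limit the sizes for Ctla2a and Cst6 too, with knockout means at percentiles 38.9 and 37.7 of genes.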
